A study of Rattus norvegicus with 10 samples.

Results

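Enzymes that conjugate glutathione, glucuronic acid or sulfate to other molecules were followed in kidney cortex RNA of Dahl salt-sensitive rats, with and without a uricase inhibitor in a salty diet. The set holds every protein-coding row of the deposited gene table whose symbol names a glutathione transferase (Gsta, Gstk, Gstm, Gsto, Gstp, Gstt, Gstz or Mgst), a UDP-glucuronosyltransferase (Ugt) or a cytosolic sulfotransferase (Sult). It comprised 42 of 32545 rows, of which 26 were glutathione transferases, 6 were Ugt genes and 10 were sulfotransferases. Membership was decided by name alone and used no measured value.

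All animals were rats of the SS/JrHsdMcwi strain, an inbred line whose blood pressure climbs on salt, labelled wildtype, and telemeters were implanted at 8 to 9 weeks of age. After 4 days of recording on 0.4% NaCl, 1 group ate 4% NaCl with 2% oxonic acid for 3 weeks (the oxonic acid group, 5 libraries), and the other ate 4% NaCl without it (the vehicle group, 5 libraries). Oxonic acid inhibits uricase, by which rats clear uric acid. High salt was shared by both groups, so no comparison here speaks to salt itself. The design names male and female rats, the labels give no sex per library, and the Y-linked Ddx3y ran from 14.9 to 17.2 FPKM over the 10 libraries. The labels number the libraries without tying each to its own rat, so the p-values reflect how far these libraries scatter, and some of that scatter may be technical.

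Conjugation makes small molecules more water-soluble and easier to export. Glutathione transferases join the tripeptide glutathione to reactive electrophiles such as lipid peroxidation products, Ugt enzymes transfer a sugar from its UDP-bound form, and sulfotransferases move sulfate from the donor PAPS onto phenols and steroids. In the kidney these reactions take place largely in the proximal tubule, which also makes glutathione, breaks down its conjugates at the brush border and secretes organic anions. Several glutathione transferase genes are known targets of the transcription factor NRF2, encoded by Nfe2l2.

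Values are FPKM, fragments per kilobase of gene length scaled to library size, so levels can be compared between genes. Reads in genes numbered 14.5 to 18.5 M (mega) per library. Markers of the early proximal tubule were abundant in every library (Slc34a1, the phosphate cotransporter, ran from 1441 to 2021 FPKM). Oxonic acid library 3 had the highest level of inner medulla and thin limb markers, with the urea transporter Slc14a2 at 15.98 FPKM against 0.505 or less in the other 9 libraries. Vehicle library 5 had the lowest level of straight proximal tubule markers, 0.67 below the mean of the 10 libraries on the log2 scale, against -0.19 to 0.30 in the others. In bulk tissue, fewer cells of a type and less RNA per cell cannot be told apart.

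No conjugation enzyme gene passed the threshold between the diets. Of the 42, 31 had a mean of at least 0.5 FPKM and were compared with limma on log2(FPKM + 0.5). None had an adjusted p under 0.05 over the 14508 genes tested (0 of 31, and 0% of all genes), and 2 had an unadjusted p under 0.05, both higher with oxonic acid. These 2 are 6.45% of the members, against 9.49% of all genes tested in either direction, 4.32% higher and 5.17% lower. The voom variant, run on reads recovered from the FPKM, also called 0 members and put 2 at an unadjusted p under 0.05. In 1 member, Gstt3, the groups did not overlap (3.23% of the members, against 1.91% of all genes tested, 0.944% higher and 0.965% lower). The log2 difference, oxonic acid minus vehicle, was above 0 for 20 members and below 0 for 11 (64.5% above, against 51.8% of all genes). Its median was 0.07 over the members and 0.01 over all genes tested. The members' median was 0.03 with FPKM rescaled to summed reads and 0.04 without oxonic acid library 3 or without oxonic acid library 5.

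**Figure D1:**
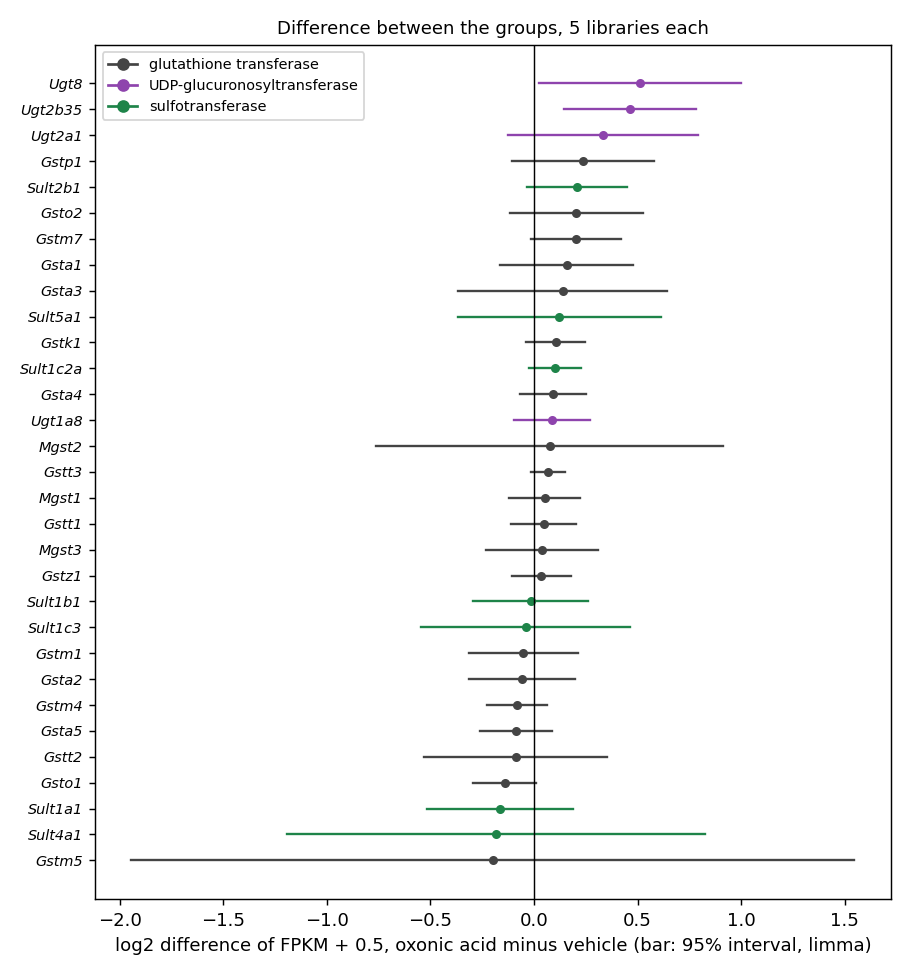
Log2 difference of FPKM + 0.5 (oxonic acid minus vehicle, x axis) for the 31 compared genes (y axis), 5 libraries per group; points are limma estimates, bars are 95% intervals and colours give the enzyme class. The intervals of 29 genes include 0, and those of Ugt8 and Ugt2b35 lie above it.

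In the fit on diet alone, the abundant enzymes were measured closely enough to bound their differences. That fit takes no account of the library-number runs, explained with the Ugt genes, so the bounds hold only apart from any effect of runs. Among the 21 members with a mean of at least 10 FPKM, the 95% interval of 20 lay within a 1.5-fold change in either direction, and that of 15 within 1.25-fold. The exception at 1.5-fold was Ugt2b35. Among the 10 compared members below 10 FPKM, 3 intervals stayed within 1.5-fold and 2, those of Gstm5 and Sult4a1, reached 2-fold. A p that misses the threshold does not show that levels were equal, and for the scarcer members the intervals leave room for sizeable differences.

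Transcripts of the family were concentrated in a few genes. Averaged over the 10 libraries, the sulfotransferase Sult1c2a (379 FPKM), the membrane-bound Mgst3 (326.7), the alpha-class Gsta1 (224) and Gsta5 (224), the theta-class Gstt3 (216) and the pi-class Gstp1 (194) made up 64.9% of the summed FPKM of the 42 genes. Gsta4, Gsto1 and Mgst1 followed at 119, 118 and 111 FPKM. The summed FPKM of the 42 genes was 2463 ± 58.0 on oxonic acid against 2354 ± 116 on vehicle (SD, n = 5 each), or 0.408% ± 0.0105 and 0.397% ± 0.0162 of all FPKM. The ranges of that sum, 2385 to 2549 and 2254 to 2517, overlapped. Glutathione transferases held most of it, at 1863 ± 67.8 FPKM on oxonic acid against 1799 ± 94.1 FPKM on vehicle (SD, n = 5 each).

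**Figure D2:**
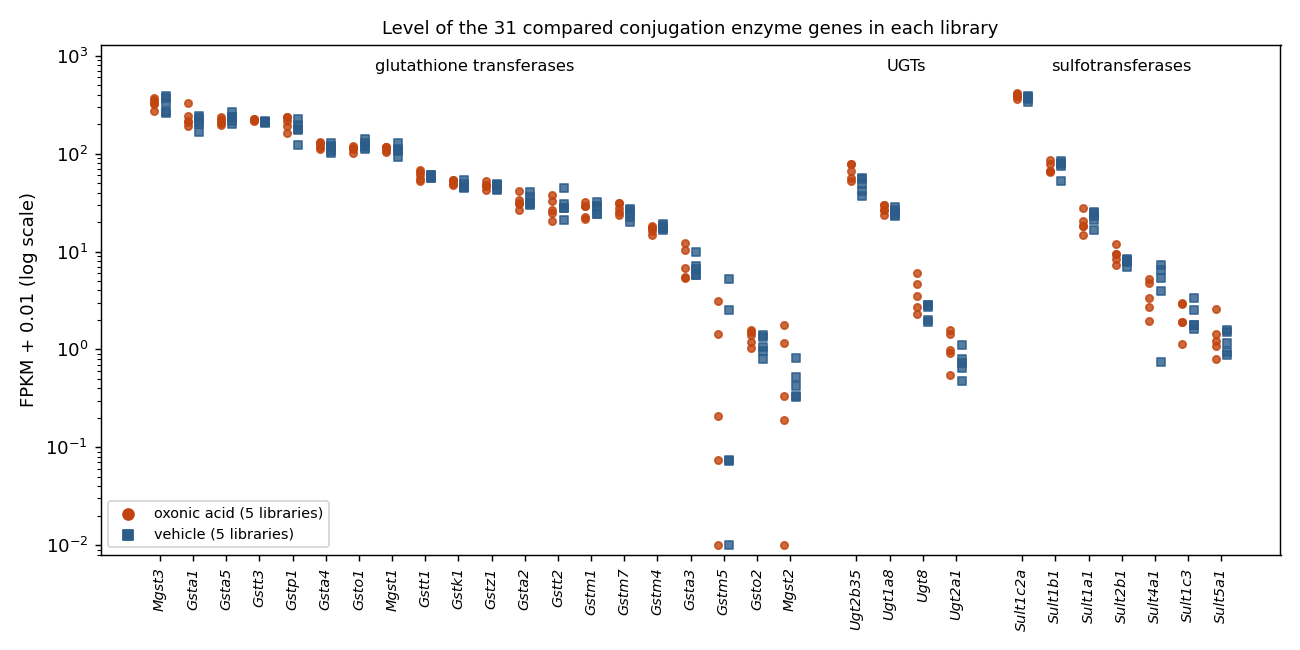
FPKM + 0.01 on a log scale (y axis) of each compared gene (x axis) in every library, with oxonic acid libraries as circles and vehicle libraries as squares. Levels run from 379 FPKM for Sult1c2a down to 0.576 FPKM for Mgst2 (means of 10 libraries), and points of the groups intermingle for nearly every gene.

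Of the 11 members under 0.5 FPKM, 8 had 2 to 59 reads in all 10 libraries together and 3 had none. The 3 listed at 0 were the mu-class Gstm6, a second Gstm6l row and the theta-class Gstt4. For a count of 0 the upper 95% limit is about 3 reads per library, which would be 0.132 to 0.219 FPKM. These limits cover counting error only. Sult2a1, a hydroxysteroid sulfotransferase, was at 0 in 8 libraries and had 2 reads in all, Sult1d1 had 4 reads, all in oxonic acid library 5, and Ugt2b17 had 10 reads. Ugt2b15 lay between 0.0257 and 0.0969 FPKM. The mu-class Gstm3 had a mean of 0.387 FPKM and was below the vehicle median in all 5 oxonic acid libraries, on 1 to 10 reads per library, and was not tested.

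Alpha-class glutathione transferases, which detoxify lipid peroxidation products and also act as peroxidases, showed no shared direction, with 3 of 5 above 0. Gsta1 measured 191, 214, 209.7, 243 and 330.3 FPKM in oxonic acid libraries 1 to 5 and 202, 166, 209.8, 234 and 242 FPKM in vehicle libraries 1 to 5. The highest value was in oxonic acid library 5 and the groups overlapped, and the log2 difference by limma was 0.16 (SE 0.15, adjusted p = 0.741). Without oxonic acid library 5 the Gsta1 difference was 0.03, and over all settings tried it ran from 0.03 to 0.44. Among libraries of the same sample-number run (runs are explained with the Ugt genes), it was 0.34 in run B and 0.47 in run C. Gsta5 measured 198 to 236 FPKM with oxonic acid and 201 to 266 FPKM with vehicle, and the log2 difference by limma was -0.09 (SE 0.08, adjusted p = 0.735). Gsta2 was lower in level, at 32.6 ± 5.58 and 33.7 ± 4.20 FPKM in the same order (SD, n = 5 each). Gsta4, specialised in hydroxynonenal, stood at 123 ± 8.46 and 115 ± 10.5 FPKM. Gsta3 lies within Gsta1 on the opposite strand (14643 bp shared), and the labels do not settle whether counting used strand, so its 8.02 ± 3.10 and 6.99 ± 1.67 FPKM are uncertain.

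Theta-class Gstt3 was the steadiest member and the only one whose groups did not overlap. It measured 214, 221, 224, 224 and 221 FPKM in oxonic acid libraries 1 to 5 and 211, 209.8, 213, 211 and 208 FPKM in vehicle libraries 1 to 5. All 5 oxonic acid values were above all 5 vehicle values, by a narrow margin, and the coefficient of variation over the 10 libraries was 2.83%, against a median of 14.2% over the members. The log2 difference was 0.07 (SE 0.04, 95% interval -0.02 to 0.15, limma adjusted p = 0.583), a size that limma, which moderates each gene's spread toward that of genes of similar level, did not call. With FPKM rescaled to the upper quartile or to summed reads, no member's groups were separated. The related Gstt1 measured 60.3 ± 6.44 FPKM on oxonic acid against 58.2 ± 2.22 FPKM on vehicle, and Gstt2 28.2 ± 6.74 and 30.3 ± 8.82 FPKM (SD, n = 5 each).

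Gstp1, the pi-class enzyme, varied more between libraries than most abundant members. It measured 239, 213, 235, 193 and 164 FPKM in oxonic acid libraries 1 to 5 and 173, 177, 194, 228 and 122 FPKM in vehicle libraries 1 to 5. The lowest value was that of vehicle library 5, and the groups overlapped. The log2 difference was 0.24 (SE 0.16, limma adjusted p = 0.634), and it was 0.11 without vehicle library 5 (limma adjusted p = 0.780). Among libraries of the same sample-number run (runs are explained with the Ugt genes), it was 0.09 and -0.03.

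Of the 4 mu-class enzymes compared, 3 had lower values with oxonic acid. Gstm7 was the exception, at 31.002, 25.5, 31.3, 23.9 and 27.9 FPKM in oxonic acid libraries 1 to 5 and 24.9, 19.997, 26.5, 22.8 and 26.9 FPKM in vehicle libraries 1 to 5. The highest values were those of oxonic acid libraries 1 and 3, the groups overlapped, and the log2 difference was 0.20 (SE 0.10, limma adjusted p = 0.542). The gene model of Gstm7 spans Gstm3, Gstm6 and a Gstm6l row on the same strand, so reads could be split between them. Gstm4 measured 16.8 ± 1.37 and 17.7 ± 0.941 FPKM (SD, n = 5 each), and Gstm1 26.9 ± 4.57 and 27.7 ± 3.28 FPKM.

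Gstm5, chosen after its values were seen, was nearly absent in 6 libraries and clearly present in 4. It measured 0.197, 1.44, 0.0639, 0 and 3.10 FPKM in oxonic acid libraries 1 to 5 and 0.0628, 5.17, 0.0644, 0 and 2.52 FPKM in vehicle libraries 1 to 5. The 4 libraries were numbers 2 and 5 of each group, with up to 94 reads in a library. Numbers 1, 3 and 4 of each group were at 0.197 FPKM or less. The labels do not say whether same-numbered libraries share more than a number, and the cause of this spread was not tested. Its coefficient of variation, 142%, was the largest among the compared members.

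Omega-class Gsto1, which also reduces dehydroascorbate, had the smallest unadjusted p among the members with lower values. It measured 113, 101, 111, 119.8 and 113 FPKM in oxonic acid libraries 1 to 5 and 119.7, 117, 127, 142 and 112 FPKM in vehicle libraries 1 to 5. In 4 of 5 oxonic acid libraries it was below the vehicle median, yet the ranges overlapped, with a log2 difference of -0.14 (SE 0.07, unadjusted p = 0.0642, limma adjusted p = 0.541). Its highest value was that of vehicle library 4. Gsto2 shares 9970 bp of the same strand with Gsto1 and measured 1.34 ± 0.236 and 1.10 ± 0.253 FPKM (SD, n = 5 each). A second Gsto2 row, below the 0.5 FPKM minimum and untested, read 0.308, 0.404, 0.359, 0.699 and 0 FPKM in oxonic acid libraries 1 to 5 and 0.0588, 0.0516, 0, 0 and 0 FPKM in vehicle libraries 1 to 5. Its 32 reads in all came mostly from 4 oxonic acid libraries, and the groups overlapped at 0.

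The remaining glutathione transferases differed little. Gstk1, found in mitochondria and peroxisomes, measured 51.3 ± 3.10 FPKM on oxonic acid against 47.7 ± 3.84 FPKM on vehicle (SD, n = 5 each), a log2 difference of 0.10. Gstz1, which isomerises maleylacetoacetate in tyrosine breakdown, measured 47.2 ± 3.51 and 46.0 ± 2.89 FPKM. The microsomal enzymes Mgst1 and Mgst3 measured 113 ± 5.14 and 109 ± 12.8 FPKM, and 329.9 ± 35.6 and 323 ± 57.8 FPKM. Mgst3 ranged from 275 to 366 FPKM with oxonic acid and from 261 to 387 FPKM with vehicle, so the vehicle range enclosed the other.

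Because NRF2 binds antioxidant response elements, the 250 bases before each RefSeq gene start (build GRCr8) were searched for the letters TGACNNNGC on either strand. Of the 33 member symbols with a promoter in RefSeq's table, 5 held a match (15.2%), against 10.1% of all 33469 promoters of that length. The xenobiotic response element letters GCGTG, on either strand, were in 10 of the 33 (30.3%), against 25.9%. Members were counted by symbol (33 symbols with 35 promoters) and the background by promoter. A symbol with more than 1 promoter has more room for a match, so the shares are not in the same unit. A match is a description of letters and not a bound site. The stretch around each match is shown for all 5. Capitals mark the match, and every sequence is written 5′ to 3′ on the strand of the gene. The match of Gstz1 reads on the opposite strand, and the first of the 2 matches of Gstm5 overlaps GCGTG, which none of the other matches does.
Gstp1 (chr1:210769738-210769786, minus strand): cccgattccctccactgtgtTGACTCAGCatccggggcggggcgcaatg
Gstm7 (chr2:198260320-198260353, minus strand): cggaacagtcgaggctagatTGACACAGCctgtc
Gsta3 (chr9:31154952-31154988, plus strand): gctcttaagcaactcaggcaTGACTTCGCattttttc
Gstm5, first match (chr2:198219636-198219684, plus strand): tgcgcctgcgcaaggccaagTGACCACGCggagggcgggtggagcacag
Gstm5, second match (chr2:198219696-198219744, plus strand): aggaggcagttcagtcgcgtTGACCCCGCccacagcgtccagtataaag
Gstz1 (chr6:112525356-112525403, plus strand): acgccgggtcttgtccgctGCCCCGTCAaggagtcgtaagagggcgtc
The matches begin 61 bases before the start in Gstp1, 14 in Gstm7, 17 in Gsta3, 113 and 53 in Gstm5 and 231 in Gstz1. The log2 differences of these 5 genes were 0.24, 0.20, 0.14, -0.20 and 0.04 in that order. Their SE were 0.16, 0.10, 0.23, 0.79 and 0.06, the intervals of all 5 include 0, and no gene passed the threshold. Only the Gstm5 value was below 0, and with an SE of 0.79 its direction is not settled. Whether NRF2 bears on these values was not tested. Nfe2l2 itself measured 65.1 ± 3.60 FPKM on oxonic acid against 69.7 ± 11.9 FPKM on vehicle, and Keap1, its inhibitor, 20.8 ± 1.52 and 18.8 ± 1.59 FPKM (SD, n = 5 each). Their limma adjusted p were 0.804 and 0.546.

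**Figure D3:**
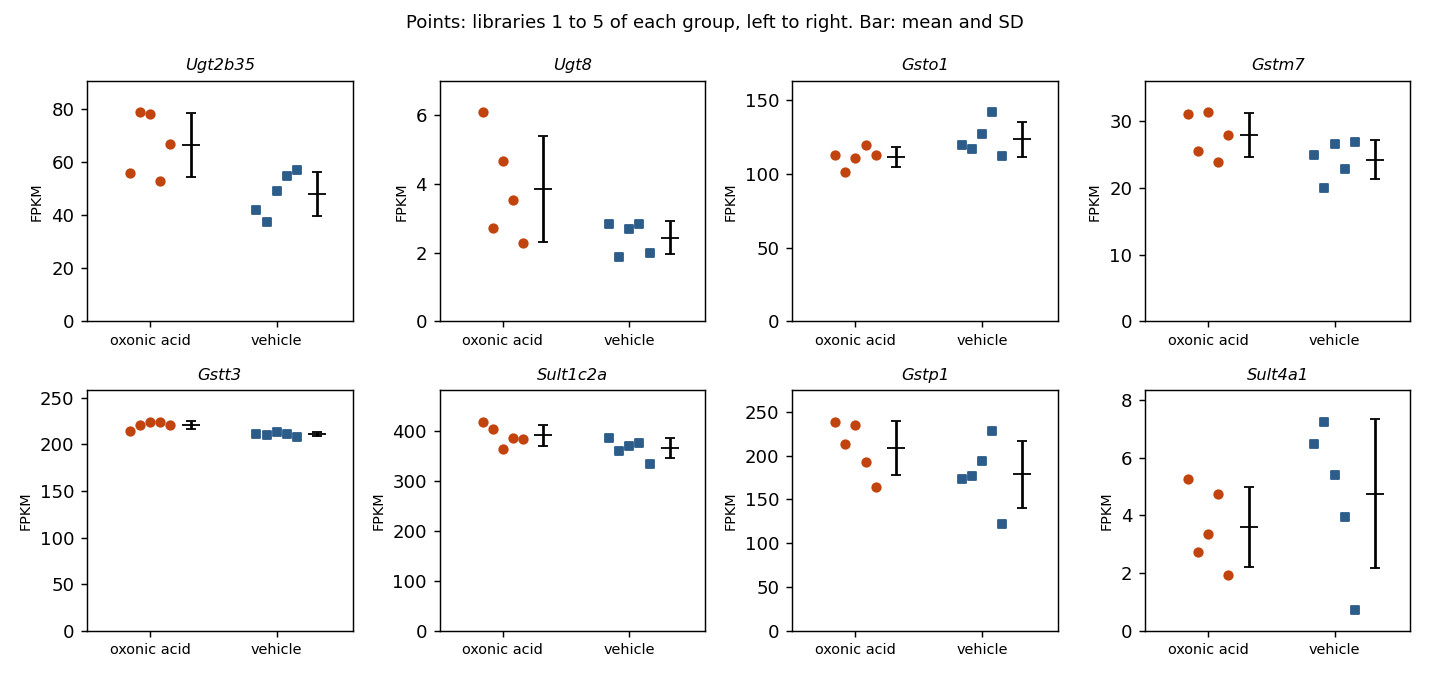
FPKM (y axis, from 0) of 8 members in the oxonic acid and vehicle libraries (x axis), with libraries 1 to 5 from left to right and the mean and SD beside them. Gstt3 is the panel without overlap, with 214 to 224 FPKM against 208 to 213 FPKM, and vehicle library 5 is the lowest point for Gstp1 and Sult4a1.

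All 4 compared Ugt genes had a log2 difference above 0, although Ugt1a8 and Ugt2a1 were below 0 with the library-number runs as a block, and the 2 members with an unadjusted p under 0.05 were both Ugt genes. Ugt2b35 belongs to the UGT2B enzymes, which glucuronidate steroids and drugs. It measured 55.9, 78.7, 78.1, 52.7 and 66.9 FPKM in oxonic acid libraries 1 to 5 and 41.9, 37.3, 49.2, 54.8 and 57.0 FPKM in vehicle libraries 1 to 5. All 5 oxonic acid values were above the vehicle median, though oxonic acid libraries 1 and 4 lay below the highest vehicle value, so the groups overlapped. The means were 66.4 ± 12.1 and 48.0 ± 8.35 FPKM (SD, n = 5 each), a log2 difference of 0.46 (SE 0.14, 95% interval 0.15 to 0.78, unadjusted p = 0.00834), short of the threshold at a limma adjusted p of 0.390. The gene lies on chromosome 14 at 22553650 to 22591461 (plus strand) by the positions in the gene table (the sources used here do not give their build). It lies within the model of Ugt2a1 on the same strand.

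Ugt8 makes galactosylceramide, a sphingolipid, rather than glucuronides. It measured 6.07, 2.70, 4.65, 3.53 and 2.28 FPKM in oxonic acid libraries 1 to 5 and 2.82, 1.88, 2.68, 2.83 and 1.98 FPKM in vehicle libraries 1 to 5. Oxonic acid libraries 1, 3 and 4 were above every vehicle value and libraries 2 and 5 were within the vehicle range. The log2 difference was 0.51 (SE 0.22, 95% interval 0.02 to 0.998, unadjusted p = 0.0415, limma adjusted p = 0.513). Oxonic acid libraries 1 and 3, the highest for Ugt8, also had the highest levels of collecting duct principal cell markers, 0.52 and 0.56 above the mean on the log2 scale. The same libraries were also highest for thick ascending limb markers (0.68 and 0.25) and for inner medulla and thin limb markers (0.47 and 1.24). The part of any of these cells in the value was not tested.

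Ugt2a1, known from olfactory tissue, measured 1.09 ± 0.418 FPKM on oxonic acid against 0.741 ± 0.233 FPKM on vehicle (SD, n = 5 each). Since its model encloses Ugt2b35 and Ugt2b15, its value is uncertain. The row named Ugt1a8 measured 27.2 ± 2.80 and 25.5 ± 2.29 FPKM (SD, n = 5 each), a log2 difference of 0.09 (limma adjusted p = 0.749). It is the only Ugt1a row among the members and spans 142 kb, while RefSeq names 8 Ugt1a genes, which share their last exons. The value may therefore stand for several Ugt1a transcripts, whose products handle bilirubin and phenols.

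Library numbers, given as sample descriptions, fall into 3 stretches, here named runs, and the labels call none of them a batch. Run A holds 3 oxonic acid libraries and 0 vehicle libraries, run B 1 and 3, and run C 1 and 2. Within runs B and C the log2 difference of Ugt2b35 was 0.31 and 0.26, and that of Ugt8 was 0.46 and -0.05. The median of the 4 Ugt genes was 0.40, and 0.10 with the runs as a block. Over all 31 members the median was 0.01 within run B (17 above 0) and 0.05 within run C (19 above 0). Both with the runs as a block and with runs B and C alone, Mgst3, Gsta5, Sult1b1, Sult1a1 and Ugt1a8 took the opposite sign. Their log2 differences there ran from -0.05 to 0.07, and only some members were followed under these settings. Of those not followed, Gstt1 was -0.12 within run B and -0.11 within run C, against 0.05 pooled. Sult1c3 was 0.12 and 0.02 in the same order, against -0.04 pooled. Run A has no vehicle library, so its part in the pooled values cannot be told apart from diet there.

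Sulfotransferases did not share a direction, with 3 of 7 above 0 and a median log2 difference of -0.02. Sult1c2a, the most abundant member, measured 419, 404, 365, 386 and 385 FPKM in oxonic acid libraries 1 to 5 and 387, 361, 370.3, 376 and 335 FPKM in vehicle libraries 1 to 5. The 2 highest values were from oxonic acid libraries and the lowest was vehicle library 5, with overlap between. The log2 difference was 0.10 (SE 0.06, 95% interval -0.03 to 0.22, limma adjusted p = 0.593). A gene on the opposite strand (RGD1562392, 14.6 FPKM) covers its whole length of 15633 bp.

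Sult2b1, which sulfates cholesterol and related steroids, measured 11.8, 8.36, 9.43, 7.29 and 9.40 FPKM in oxonic acid libraries 1 to 5 and 7.96, 6.95, 7.88, 8.25 and 8.33 FPKM in vehicle libraries 1 to 5. In 4 of 5 oxonic acid libraries it exceeded every vehicle value, and library 4 fell within the vehicle range. The log2 difference was 0.21 (SE 0.11, limma adjusted p = 0.568), and 0.12 without oxonic acid library 1.

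Sult1b1 and Sult1a1, which sulfate phenols and thyroid hormones, had means near each other in the groups. Sult1b1 measured 72.8 ± 9.23 FPKM on oxonic acid against 74.1 ± 12.3 FPKM on vehicle, where library 5 was lowest at 53.1 FPKM. Sult1a1 measured 19.9 ± 4.83 and 22.1 ± 3.58 FPKM (SD, n = 5 each), with a log2 difference of -0.16 (limma adjusted p = 0.756). Sult1c3 and Sult5a1 had means of 2.17 and 1.31 FPKM over the 10 libraries and log2 differences of -0.04 and 0.12.

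Sult4a1, a sulfotransferase best known from brain, gave the most uneven values among those above 2 FPKM. It measured 5.27, 2.73, 3.36, 4.73 and 1.93 FPKM in oxonic acid libraries 1 to 5 and 6.48, 7.24, 5.40, 3.93 and 0.726 FPKM in vehicle libraries 1 to 5. All 5 oxonic acid values were below the vehicle median, but vehicle library 5 was the lowest of all 10. The log2 difference was -0.18 (SE 0.46, limma adjusted p = 0.915), and -0.65 without vehicle library 5 (limma adjusted p = 0.434).

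Vehicle library 5 was the lowest library for 8 of the 31 members, ahead of vehicle library 2 with 7. The 8 were Gstt3, Gstp1, Gsta4, Mgst1, Gstz1, Sult1c2a, Sult1b1 and Sult4a1. Vehicle library 2 was lowest for all 4 compared Ugt genes and for Gsta1, Gstm7 and Sult2b1, and oxonic acid library 1 was the highest library for 8 members. Vehicle library 5 was also lowest for Slc7a13, an amino acid transporter of the straight proximal tubule, at 245 FPKM against 733 to 1627 FPKM in the other 9. It was lowest again for Gclc and Gclm, the subunits of glutamate-cysteine ligase, which sets the rate of glutathione synthesis, at 599.7 and 321 FPKM. Whether the share of straight tubule in the tissue bears on the members' values was not tested.

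**Figure D4:**
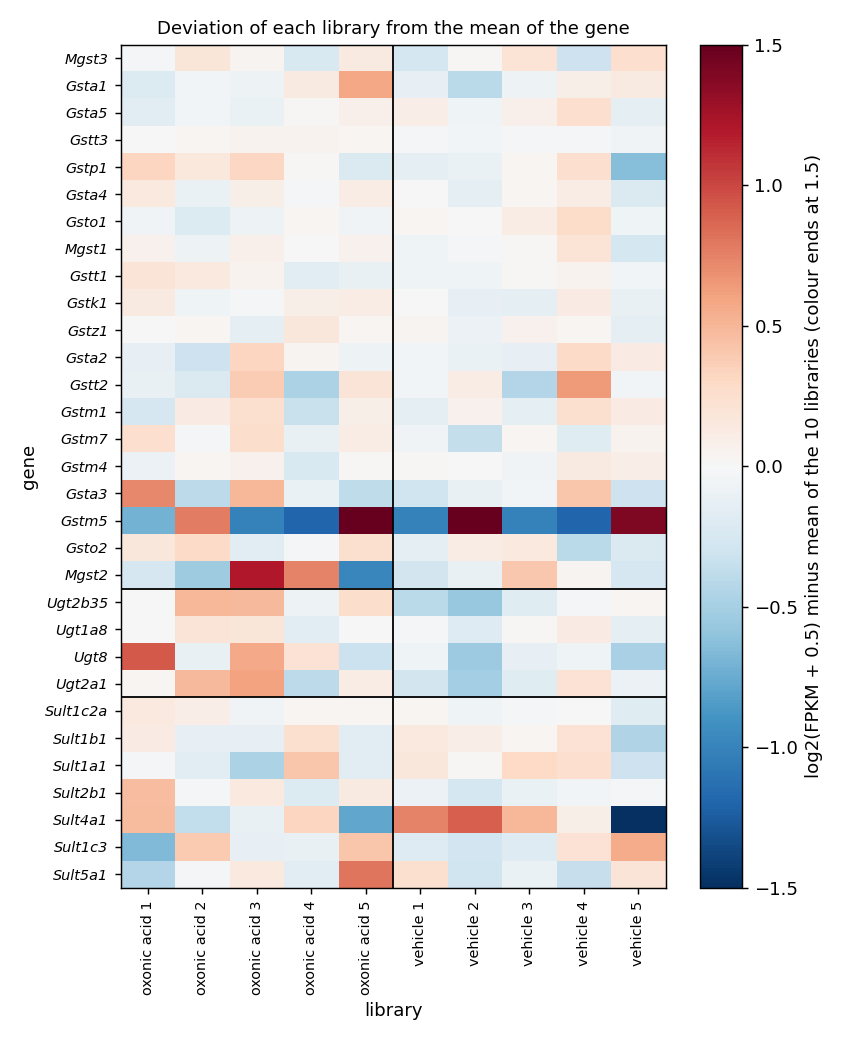
Log2(FPKM + 0.5) of each compared gene (rows, by enzyme class) in each library (columns) as the difference from the gene's mean over the 10 libraries; red is higher and blue is lower, with colours ending at 1.5. The strongest colours are those of Gstm5 and Sult4a1, and the column of vehicle library 5 is blue for Gstp1, Sult1b1 and Sult4a1.

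Several marker lists of other cell types lay further from 0 than the members, although none of their genes passed either. Lists not described here are given with their medians under the processing. Tubular injury markers were lower in 14 of 15 (median log2 difference -0.58), their summed level running from 1158 to 2047 FPKM with oxonic acid and from 1931 to 4221 FPKM with vehicle. Of these 15, 11 had an unadjusted p under 0.05, against 9.49% of all genes. T and NK cell markers were lower in 10 of 10 (-0.31, with 31.1 to 33.2 and 32.6 to 50.1 FPKM). Macrophage and monocyte markers were lower in 13 of 14 (-0.20, with 380.1 to 485 and 438 to 600.2 FPKM). Principal cell markers were higher in 9 of 9 (0.33, with 354 to 484 and 267 to 367 FPKM). They were higher in 8 of 9 without oxonic acid library 3 (0.28) or without vehicle library 2 (0.25). Their log2 level against the mean of the 10 libraries was 0.52, 0.05, 0.56, 0.06 and -0.19 in oxonic acid libraries 1 to 5. In vehicle libraries it ran from -0.44 to -0.11. Early proximal tubule markers were higher in 6 of 10 (median 0.02), as were straight proximal tubule markers (median 0.17, and -0.04 without vehicle library 5). No gene of these 6 lists was at 0 in every library, and the part of these cells in the members' values was not tested.

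Genes that feed or follow conjugation were compared as lists, and no gene in them passed by limma. Of 9 compared genes for glutathione synthesis and recycling, 8 were higher with oxonic acid, with a median log2 difference of 0.14. By limma, 1 of the 9 had an unadjusted p under 0.05, as did 9.49% of all genes tested. Without vehicle library 5, 6 of the 9 were higher and the median was 0.03, with Gclm, Gss and Cth below 0. Gclc was very abundant, at 1797 ± 431 FPKM on oxonic acid against 1443 ± 483 FPKM on vehicle (SD, n = 5 each), a log2 difference of 0.38 (limma adjusted p = 0.680). Without vehicle library 5 its vehicle mean was 1654 ± 119 FPKM (SD, n = 4) and the difference 0.09 (limma adjusted p = 0.863). Cbs, which opens the route from homocysteine to cysteine, measured 91.0 ± 5.61 and 81.8 ± 3.00 FPKM, and the reductase Gsr 160.4 ± 6.71 and 149.9 ± 11.1 FPKM (SD, n = 5 each). Their limma adjusted p were 0.414 and 0.599.

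Of 13 genes that break down glutathione and its conjugates, 9 were higher, with a median of 0.05. Without vehicle library 5, 4 were higher and 9 lower, with a median of -0.03. Oplah, which opens the ring of oxoproline, measured 115 ± 8.81 and 104 ± 6.42 FPKM, and Ggct, which forms oxoproline, 236 ± 48.4 and 196 ± 38.5 FPKM (SD, n = 5 each). Among 15 glutathione peroxidase and thioredoxin system genes, 6 were higher and 9 lower. The glutaredoxin Glrx measured 9.14 ± 1.47 and 12.0 ± 1.41 FPKM, and Gpx8, a peroxidase of the endoplasmic reticulum, 7.22 ± 0.547 and 9.21 ± 1.45 FPKM (SD, n = 5 each). Both had lower means with oxonic acid (log2 differences of -0.38 and -0.32, limma adjusted p of 0.370 and 0.396).

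Supply of the sugar and sulfate donors showed no common direction. Of 10 genes around UDP-glucuronate, 5 were higher and 5 lower, and Ugdh, which makes UDP-glucuronate, measured 80.5 ± 3.31 and 80.6 ± 8.46 FPKM (SD, n = 5 each). Uxs1, which converts UDP-glucuronate to UDP-xylose, measured 14.4 ± 0.636 and 16.3 ± 1.47 FPKM, and Miox, which opens inositol to glucuronate, 1027 ± 60.0 and 923 ± 86.2 FPKM. Of 18 genes around sulfate donors and sulfate removal, 7 were higher and 11 lower. Bpnt1, which clears the spent donor, measured 39.2 ± 1.78 and 35.0 ± 3.06 FPKM, and Slc35b2, which carries PAPS into the Golgi, 25.5 ± 0.674 and 27.4 ± 0.862 FPKM (SD, n = 5 each).

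Of 15 genes for conjugate efflux and anion transport, 11 were higher, with a median of 0.08. None had an unadjusted p under 0.05 by limma, against 9.49% of all genes tested. Without vehicle library 4, or without vehicle library 5, 8 were higher and 7 lower (medians 0.10 and 0.06). At most 12 were higher with 1 library left out. The drug pump Abcb1a measured 2.27 ± 0.433 and 2.90 ± 0.653 FPKM (SD, n = 5 each). Of 28 other drug-metabolising enzymes, 15 were higher and 13 lower, or 12 and 16 without vehicle library 5. Cyp1b1, a cytochrome P450, measured 0.838 ± 0.157 and 1.52 ± 0.499 FPKM (limma adjusted p = 0.370). Its groups did not overlap, which held for 1.91% of all genes tested. Akr7a3, an aldehyde reductase, measured 549.8 ± 50.3 and 443 ± 59.5 FPKM (limma adjusted p = 0.396).

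Among 24 compared regulators of conjugation genes, 16 were higher and 8 lower, with a median log2 difference of 0.06. Nfe2l1, a relative of Nfe2l2, averaged 44.8 ± 2.16 and 41.2 ± 2.25 FPKM (SD, n = 5 each), with a limma adjusted p of 0.522. By a narrow margin its groups did not overlap (43.26 to 48.6 and 37.4 to 43.17 FPKM). Groups did not overlap in 1.91% of all genes tested. Cebpb, an acute-phase factor, measured 46.0 ± 6.84 and 59.7 ± 10.3 FPKM (limma adjusted p = 0.414).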

How the data were processed

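Bulk RNA-seq of kidney cortex was deposited as 1 gene table. Its FPKM values were made by the authors using featureCounts 1.5.0-p3, StringTie 1.3.3b, HISAT2 2.0.5 and fastp, per the submitters' processing notes, which assign no step to each tool. The sources used here do not give a genome build, annotation or strand setting. Scaled back by gene length and library size, 100% of values came out as whole reads within 0.01 read, and libraries held 14.5 to 18.5 M reads in genes. The closest pair of libraries differed by a chi-square of 5.00 per degree of freedom, so none was counted as a copy.

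Genes with a mean of at least 0.5 FPKM were compared on log2(FPKM + 0.5) with limma 3.58.1 (R 4.3.3), with variance trend, and p-values were adjusted by Benjamini-Hochberg over 14508 genes at a threshold of 0.05. That pseudocount understates fold changes of scarce genes. The fitting step was tested on simulated data. Python 3.11.15 and matplotlib 3.10.9 made summaries and plots. Genes named are the most abundant members of each class, the members with the smallest p in each direction, members whose groups did not overlap, and the genes with the smallest p in each pathway list; others were chosen after their values were seen. Some genes that this rule names are not reported here. Members and lists were chosen with earlier results of these data known. The labels do not say that replicate numbers pair the libraries, so the fit on diet alone used no pairing. Alternatives covered the pseudocount, filter, scaling, test, weights, runs, replicate block and each library left out. Protein sequences were not used here.

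For the other marker lists, the numbers of tested genes higher and lower on oxonic acid follow, with the median log2 difference. They were 5 and 1 for thick ascending limb (0.30), 4 and 1 for distal convoluted tubule (0.30) and 4 and 2 for intercalated cells (0.06). Inner medulla and thin limb had 9 and 0 (0.29), or 6 and 3 (0.13) without oxonic acid library 3. Podocytes had 7 and 1 (0.21) and endothelium 7 and 2 (0.13). Fibroblasts and pericytes had 3 and 7 (-0.16), hepatocytes 1 and 2 (-0.42), adrenal cortex 0 and 2 (-0.16), and Y-linked genes 2 and 2 (-0.05).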

Additional observations from a re-analysis of the deposited data

Results flagged for a closer look

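Among 36 named genes, each examined in both groups of 5 libraries (72 groups), 1 value stood apart. Cyp1b1 in vehicle library 2 was 2.40 FPKM, and the nearest of the other vehicle libraries was at 1.42 FPKM and the lowest at 1.16 FPKM. The gap to the nearest value was 0.789 of the range of the group, above Dixon's 95% critical value of 0.71 for 5 samples. Chance alone puts about 1 in 20 such groups past that value. No cause was tested.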

How the results depend on the processing

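No member was called under any of the 12 other settings or the 10 fits that each left out 1 library, and the members' smallest adjusted p ran from 0.234 to 0.991 and from 0.308 to 0.690. Over all genes, 1 gene was called with array quality weights, and 0 to 1 when a library was left out (1 without vehicle library 1). Members whose groups did not overlap numbered 0 with FPKM rescaled to summed reads, with or without the mitochondrial genome, or to the upper quartile. They numbered 3 with runs B and C only, and 1 to 2 with a library left out (2 without oxonic acid library 4). Smaller groups separate more easily by chance, and the share over all genes was not taken for these settings. These counts therefore cannot be set against that of the main fit. The median of the Ugt genes was 0.10 with the runs as a block, 0.11 with runs B and C only, and 0.31 to 0.50 with a library left out. Over all these fits the median of the members ran from 0.03 to 0.09, that of the glutathione transferases from 0.01 to 0.07 and that of the sulfotransferases from -0.05 to 0.08. Leaving out each library was also tried for the pathway and marker lists, a choice made after seeing the data, and it called 0 of their genes.

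Some log2 differences of named genes changed sign, among them Ugt2a1 (0.33 as reported), Ggct (0.26) and Sult4a1 (-0.18), and the cause was not tested. With array quality weights Gsta2 was 0.038 and Gstt2 0.10. With the runs as a block Ugt1a8 was -0.047, Ugt2a1 -0.018, Mgst3 -0.038, Gsta5 0.0043, Sult1b1 0.057, Sult1a1 0.072 and Ggct -0.056. With runs B and C only Ugt1a8 was -0.038, Mgst3 -0.028, Gsta5 0.0070, Sult1b1 0.030, Sult1a1 0.042 and Ggct -0.034. With a library left out, Sult1b1 ran from -0.13 to 0.035, Gsta2 from -0.15 to 0.014, Gstt2 from -0.21 to 0.060, Mgst3 from -0.033 to 0.11 and Sult4a1 from -0.65 (without vehicle library 5) to 0.017 (without vehicle library 2).

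Same-numbered libraries correlated at -0.01 to 0.20 in their deviations from the group means, and 2 of 10 correlated best with their own number. Over all genes tested these values show no clear pairing, although Gstm5 was clearly present only in libraries 2 and 5 of both groups. The correlations cannot tell whether same-numbered libraries share more than a number, which the labels do not say. With the replicate block, 0 genes and 0 members were called (smallest member adjusted p 0.362). Depth limits the members below 0.5 FPKM, which were not tested.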
